A study of Homo sapiens with 12 samples.

Results

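Gene expression in MCF10CA1a, the metastatic line of the MCF10 breast epithelial series, was compared with that in MCF10AT1, the premalignant line known to carry activated HRAS. The comparison covered the 12594 genes, of 59427 gene symbols in the table, whose level was at least 1 TPM (a level per transcript length, scaled to a sum of 1000000) in either line. The genes nearest to this limit were FAM106C at 1.00 TPM and PSMD10P2 at 1.00 TPM just inside it, and ZKSCAN2-DT at 0.9996 TPM and AC010507.2 at 0.998 TPM just outside it. The study profiled 4 human lines by bulk RNA-seq of total RNA with a stranded library kit, 3 libraries per line and 12 in all. MCF10A is the immortalised, non-tumorigenic parent, MCF10DCIS models carcinoma in situ of the ducts and MCF10CA1a metastatic disease. The series' text lists an HRAS G12V stage without naming its line, which was read as MCF10AT1 because the other stages belong to the other lines. All lines were kept in 1 medium, DMEM/F12 with horse serum, human insulin, EGF, cholera toxin, hydrocortisone, glutamine and antibiotics. EGF and insulin were therefore supplied to both lines compared here, and by this reading the line compared against already carries the HRAS allele. Each stage is 1 line, so the stage of disease and the history of that line cannot be told apart.

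The values used were the authors' mean TPM of each line. They carry no error, and the depth behind them is unknown, so no difference has a replicate check or a p-value. Differences are log2(TPM + 1) of MCF10CA1a minus MCF10AT1, which understates those of low genes. Genes with a difference of at least 1 in size are called higher or lower, a 2-fold difference of TPM + 1. This limit is called the rule of size below. In bulk RNA, fewer cells of a type and less RNA per cell cannot be told apart.

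MCF10A cells are breast epithelial cells of a mixed basal character. They are known to express basal keratins and the basal factor p63 but also make luminal and stratified epithelial proteins. In the values used here the p63 gene, TP63, was low in MCF10A, at 0.901 TPM. RAS is a small GTPase that passes growth factor signals to the ERK kinases, and ERK in turn induces transcription factors of the AP-1 family, secreted growth factors and its own inhibitors. Epithelial cells under strong RAS or TGF-beta signalling can lose junction proteins and gain mesenchymal ones, a process called the epithelial-mesenchymal transition. RAS-transformed cells are also known for secreting interleukin 1 and neutrophil-attracting chemokines under the control of NF-kB and AP-1.

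HRAS, read first because it bears on the labels, stood at 50.8 TPM in MCF10A, 126 TPM in MCF10AT1, 276 TPM in MCF10DCIS and 312 TPM in MCF10CA1a. The difference between MCF10CA1a and MCF10AT1 was 1.30. Both were above the parent. The cell's own HRAS and the introduced copy share 1 symbol in the table. Epithelial genes were present in both lines, with the adhesion molecule EPCAM at 37.6 TPM in MCF10AT1 and 148 TPM in MCF10CA1a. Of 10 endothelial markers 1 reached 1 TPM, PECAM1, and the 10 summed to 1.10 TPM in MCF10AT1 and 1.60 TPM in MCF10CA1a. Of 12 leukocyte markers 3 did (CORO1A, CD68 and CD14), with sums of 13.7 TPM and 15.8 TPM. CD3D, CD3E, MS4A1 and TYROBP were listed at 0 in both. Of 10 neural and muscle markers 1 reached 1 TPM in either line, the tubulin gene TUBB3, at 56.1 TPM in MCF10AT1 and 24.1 TPM in MCF10CA1a. Of 12 fibroblast markers 5 reached 1 TPM, and the 12 summed to 151 TPM in MCF10AT1 and 4.63 TPM in MCF10CA1a. DCN made up most of the first sum. Of the 5 measured markers 4 were lower in MCF10CA1a and 0 higher, with a median of -1.71, where 4.13% of all genes were lower. Most of these 4, DCN among them, were under 1 TPM in MCF10CA1a and passed the filter through MCF10AT1 alone. The filter thus fixed their direction and bears on this count and median. The fibroblast collagen gene COL1A2 was not among the measured ones, at 0.0408 TPM and 0.0102 TPM.

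Structural and small non-coding RNAs took 60.0% of the TPM in MCF10AT1 and 59.8% in MCF10CA1a, and ribosomal protein genes took 7.72% and 8.14%. The 2 lines were thus close in the share left to other genes. A rescaled TPM, in which structural, mitochondrial and ribosomal protein RNAs were left out and the remaining 53548 symbols of the table brought back to a sum of 1000000, was used as a second scale. Of these, 12426 were in the comparison. Rescaled differences of low genes are larger, because the added 1 then weighs less.

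Of the 12594 genes, 786 were higher in MCF10CA1a and 520 were lower. These are 6.24% and 4.13% of the genes compared, the background for the gene lists below. With rescaled TPM 1050 were higher and 667 lower, 8.45% and 5.37% of 12426 genes. On both scales 780 were higher and 515 lower, and 0 genes were on opposite sides. The median difference of all genes was -5.22e-05, or 0.013 with rescaled TPM, and the median size of a difference was 0.28. At least 1 TPM was reached in both lines by 11277 genes, in MCF10CA1a alone by 700 and in MCF10AT1 alone by 617. Genes that reached it in 1 line alone passed the filter through the line in which they were higher. They enter the counts and medians of the lists below. The share of genes past the rule of size was 11.3% among those at 1 to 5 TPM in the higher line and 12.3% among those at 100 TPM or more.

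**Figure D1:**
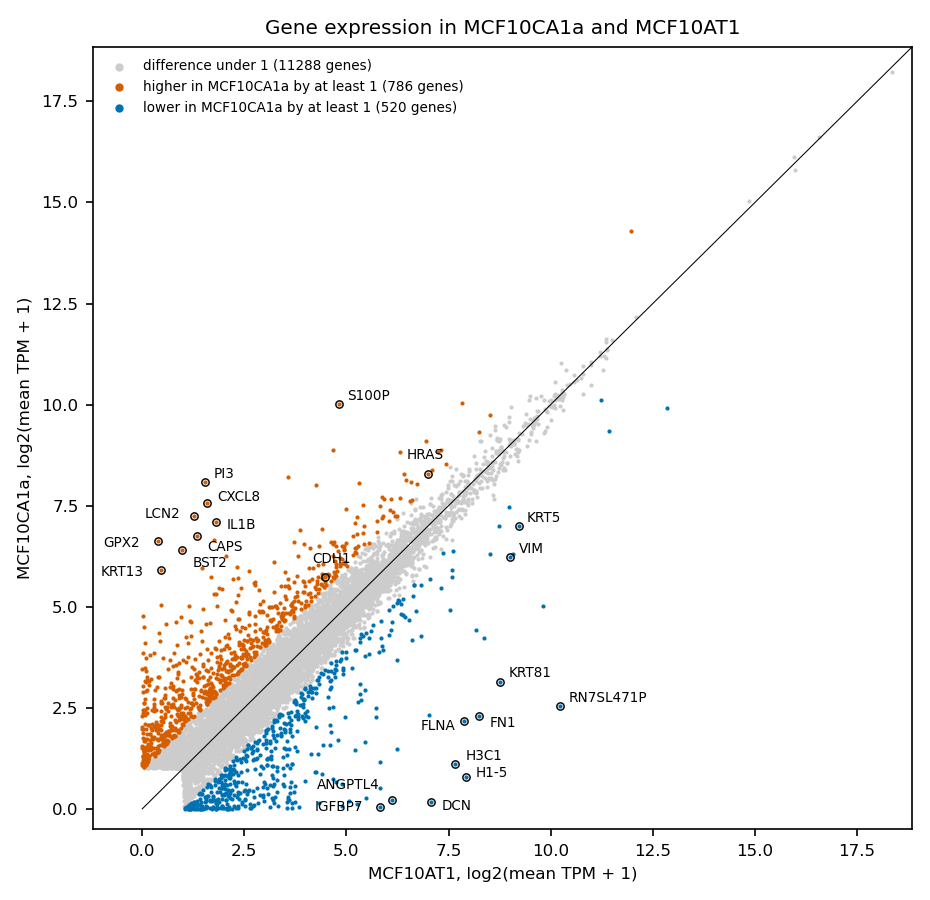
Level of each of the 12594 genes in MCF10AT1 (x axis) and MCF10CA1a (y axis), both as log2 of the authors' mean TPM plus 1, with the line of equality. The 786 genes higher in MCF10CA1a are orange, the 520 lower ones blue, and named points include PI3 and CXCL8 far above the line and DCN and H1-5 far below it.

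The largest differences upwards were in secreted defence proteins, cytokines and epithelial differentiation genes. PI3, the elastase inhibitor elafin (chromosome 20, 45174876 to 45176544, plus strand), stood at 1.92 TPM in MCF10AT1 and 269 TPM in MCF10CA1a, a difference of 6.53. LCN2, the iron-carrier-binding lipocalin of innate defence, stood at 1.42 TPM and 150 TPM. S100P, a calcium-binding protein, stood at 27.0 TPM and 1034.1 TPM. These 3 were not low in the parent, with 50.2 TPM for PI3, 16.1 TPM for LCN2 and 1041.0 TPM for S100P in MCF10A. GPX2, an epithelial glutathione peroxidase, stood at 0.300 TPM in MCF10AT1 and 97.9 TPM in MCF10CA1a, and at 0.150 TPM in MCF10A. Like it, the mucosal keratin KRT13 was low in both precursor lines, with 0.401 TPM in MCF10A, 0.374 TPM in MCF10AT1 and 58.9 TPM in MCF10CA1a. The others of the 15 largest were CXCL8, BST2, CAPS, IL1B, CALB2, TMPRSS15, PLAT, CYB5R2, UGT1A6 and PRSS21, with differences between 4.45 and 5.97. TMPRSS15 (enteropeptidase, a protease of the small intestine) was at 0.00985 TPM in MCF10AT1 and 26.2 TPM in MCF10CA1a. UGT1A6 shares its last exons with other UGT1A genes, so its level of 60.7 TPM in MCF10CA1a may include their reads.

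Downwards, the largest differences were in extracellular matrix, cytoskeletal, mucin and histone genes. DCN, the proteoglycan decorin (chromosome 12, 91140484 to 91183123, minus strand), stood at 134 TPM in MCF10AT1 and 0.126 TPM in MCF10CA1a, a difference of -6.90. FN1, fibronectin, stood at 303 TPM and 3.89 TPM. IGFBP7, a secreted growth factor-binding protein, stood at 55.1 TPM and 0.0317 TPM. All 3 were high in MCF10AT1 alone: MCF10A had 0.163, 5.03 and 0.448 TPM and MCF10DCIS 0.142, 2.01 and 1.01 TPM in the same order. MUC1, the luminal transmembrane mucin, stood at 55.1 TPM in MCF10AT1 and 0.438 TPM in MCF10CA1a, below the 123 TPM of MCF10A. FLNA, the actin crosslinker filamin A, was at 236 TPM and 3.47 TPM, and ANGPTL4, a secreted inhibitor of lipoprotein lipase, at 68.4 TPM and 0.173 TPM. The remaining genes of the 15 were RN7SL471P, H1-5, H3C1, KRT81, VSTM2L, H2BC3, H19, EMD and MT1E, with differences between -7.69 and -4.79. KRT81, RN7SL471P and the histone genes have near-identical copies, among which reads may have been split.

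The mesenchymal genes were the list with the lowest median. Of 22 listed, 18 were measured, 14 were lower in MCF10CA1a and 1 was higher. The median was -2.58 (all genes -5.22e-05) or -2.87 with rescaled TPM. Some of the 14, DCN, ZEB2 and TAGLN among them, were under 1 TPM in MCF10CA1a. They passed the filter through MCF10AT1 alone, so the filter itself bears on this count and median. VIM, the mesenchymal intermediate filament vimentin, stood at 516 TPM in MCF10AT1 and 74.1 TPM in MCF10CA1a, but at 4.56 TPM in MCF10A. So the metastatic line was below MCF10AT1 and above the parent. TAGLN, an actin-binding protein, stood at 12.3 TPM and 0.485 TPM. Of the transcription factors that repress E-cadherin, ZEB2 stood at 7.70 TPM in MCF10AT1 and 0.0264 TPM in MCF10CA1a, a difference of -3.08. Those of TWIST1 and TWIST2 were -2.72 and -2.56, and those of SNAI2 and ZEB1 -1.62 and -1.37. SNAI1, at -0.45, did not pass the rule of size. The exception to the direction was SPARC, a collagen-binding matricellular protein, at 1.22 TPM in MCF10AT1, 31.7 TPM in MCF10CA1a and 92.9 TPM in MCF10DCIS.

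The epithelial junction and identity genes stood the other way. Of 34 measured members 19 were higher and 0 lower. The median was 1.14, and 32 had a difference above 0. CDH1, the adherens junction protein E-cadherin, stood at 21.3 TPM in MCF10AT1 and 51.9 TPM in MCF10CA1a, a difference of 1.25. It was at 149 TPM in MCF10A, so MCF10CA1a lay between the parent and MCF10AT1. The tight junction protein CLDN1 had the largest difference, from 4.08 TPM in MCF10AT1 to 51.6 TPM in MCF10CA1a, followed by the epithelial ETS factor EHF (3.06 and 24.4 TPM). The differences of GRHL1, an epithelial transcription factor, and of CLDN4, a claudin, were both 2.43. ELF3, another epithelial ETS factor, stood at 222 TPM in MCF10A, 10.9 TPM in MCF10AT1 and 50.1 TPM in MCF10CA1a. None of the 8 measured desmosome genes of the list passed the rule of size, with differences from -0.26 for the plaque gene PKP2 to 0.95 for JUP, the plaque protein plakoglobin (53.6 and 105 TPM). ESRP1, the epithelial splicing regulator, stood at 14.4 TPM and 40.4 TPM, whereas ESRP2 differed by 0.22.

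Basal genes were split among themselves. Of 23 measured, 9 were higher and 4 lower, with a median of 0.85. The keratin pair of basal cells was lower in MCF10CA1a, KRT5 at 592 TPM in MCF10AT1 and 126 TPM in MCF10CA1a and KRT14 at 24.6 TPM and 4.75 TPM. KRT6A, a keratin of activated epidermis, stood at 364 TPM and 78.2 TPM. Among the higher ones, KRT17, a stress keratin, stood at 227 TPM in MCF10AT1 and 1045.7 TPM in MCF10CA1a. NGFR, the low-affinity neurotrophin receptor, stood at 0.323 TPM and 19.3 TPM. TP63, which encodes p63, stood at 0.901 TPM in MCF10A, 4.81 TPM in MCF10AT1 and 10.7 TPM in MCF10CA1a, a difference of 1.01. The difference of KRT6B was 3.77 against -2.20 for KRT6A, near-identical keratins whose reads may have been split. ITGB4 and LAMB3, which link basal cells to the basement membrane, differed by 1.27 and 1.30.

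Luminal genes divided too. Of 23 listed, 13 were measured, 5 were higher and 2 lower, with a median of 0.73. SLPI, a secreted protease inhibitor, stood at 38.4 TPM in MCF10AT1 and 268 TPM in MCF10CA1a. FOXA1, a luminal pioneer factor, stood at 2.88 TPM and 10.1 TPM and the EGF receptor family member ERBB3 at 2.14 TPM and 8.55 TPM. WFDC2, another secreted protein, was at 252 TPM in MCF10A, 3.04 TPM in MCF10AT1 and 0.261 TPM in MCF10CA1a. It and MUC1 were the lower luminal members.

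Genes of stratified epithelium were higher as a list. Of 34 listed, 19 were measured, 12 of them higher and 0 lower, with a median of 1.28, or 1.79 with rescaled TPM. Some of the higher ones, KRT13, IVL and SPRR2A among them, were under 1 TPM in MCF10AT1. They passed the filter through MCF10CA1a alone, so the filter itself bears on this count and median. Beside KRT13, the calgranulin subunit S100A9 stood at 3.95 TPM in MCF10AT1 and 62.5 TPM in MCF10CA1a, and the protease inhibitor CSTB at 123 TPM and 548 TPM. The cornified envelope precursors SPRR2A and SPRR1B differed by 2.69 and 2.37, and reads of near-identical SPRR2 genes may have been split. IVL, the envelope protein involucrin, was low in both lines, at 0.804 TPM and 4.09 TPM. KRT10, the keratin of suprabasal epidermis, and TGM1, the enzyme that crosslinks the envelope, did not share the direction (-0.22 and -0.39). In the neighbouring protease group, KLK6 and KLK5 were higher (2.68 and 1.67) while KLK7 stood at 8.27 TPM in MCF10AT1 and 0.172 TPM in MCF10CA1a. All 3 kallikreins were highest in the parent, with 108, 953 and 223 TPM.

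**Figure D2:**
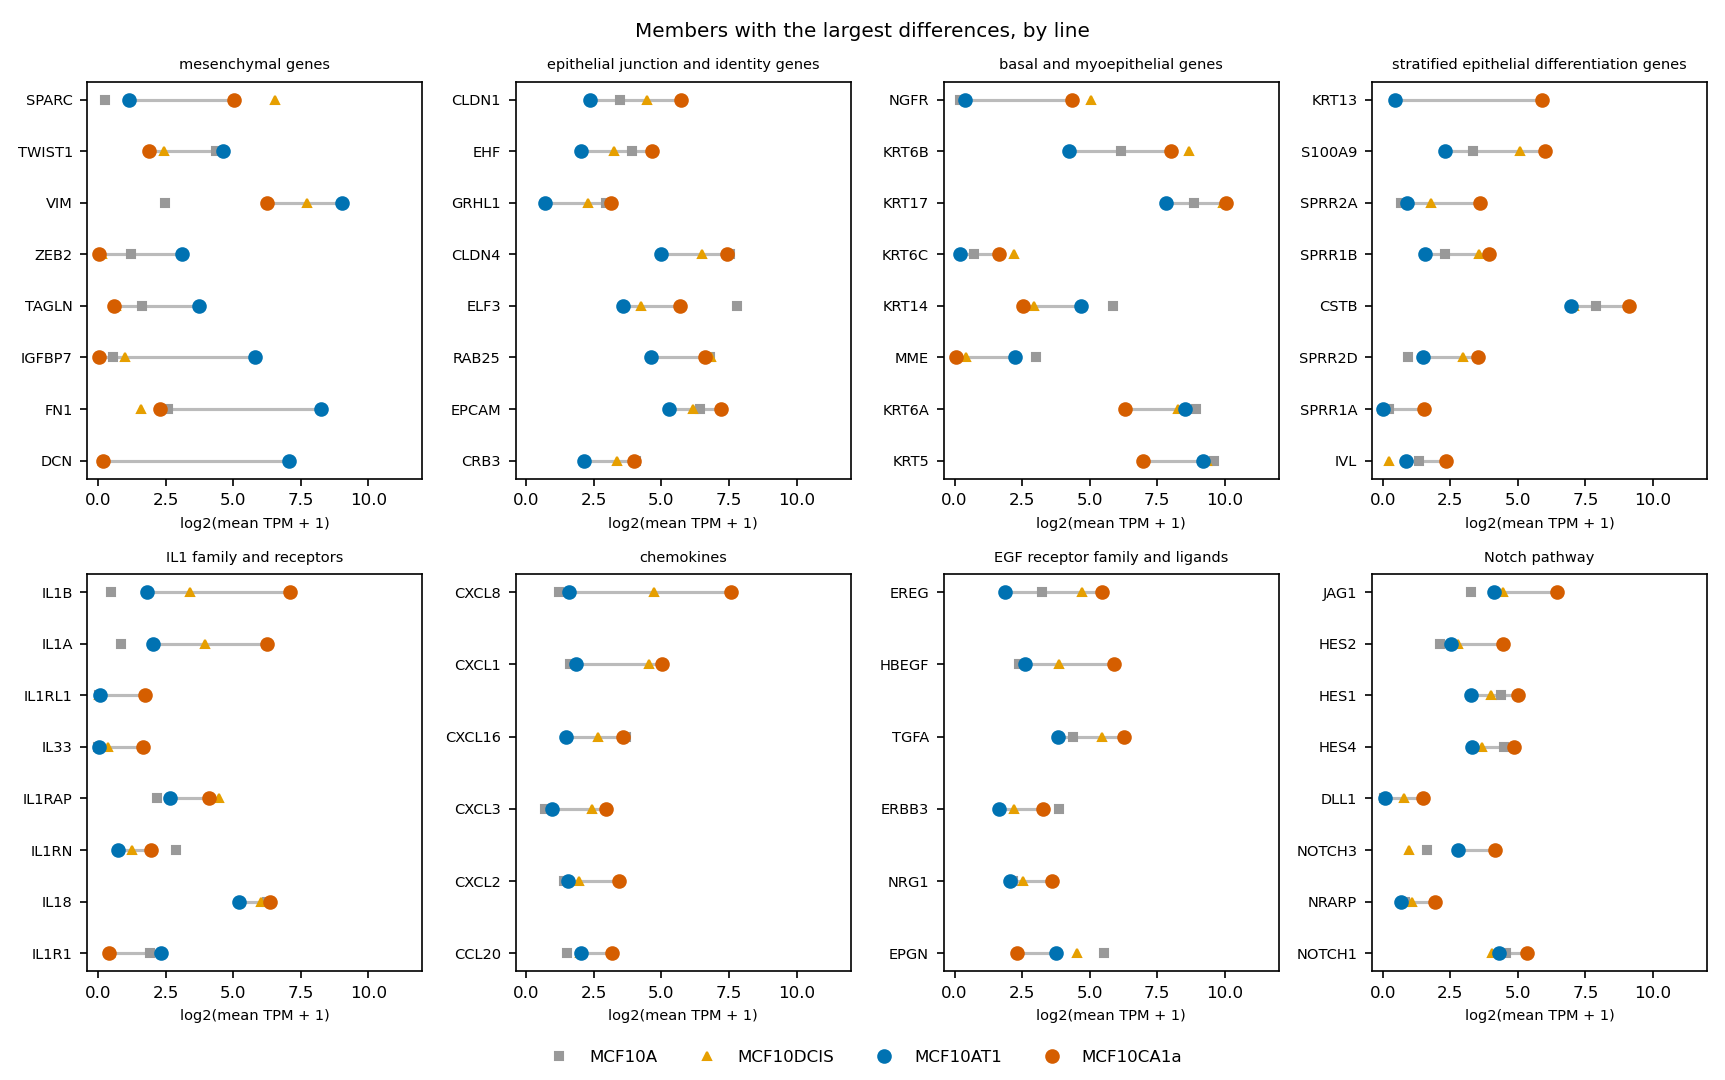
Levels, as log2 of the authors' mean TPM plus 1 (x axes), of up to 8 members past the rule of size for each of 8 gene lists (panels), with a grey bar joining MCF10AT1 (blue) to MCF10CA1a (orange). MCF10A (grey squares) and MCF10DCIS (yellow triangles) are shown beside them; mesenchymal genes other than SPARC lie lower in MCF10CA1a and the epithelial, chemokine and Notch members lie higher.

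Interleukin 1 ligands and neutrophil-attracting chemokines had the highest list medians. Of 10 measured genes of the IL1 family 8 were higher and 1 lower (median 1.33). Some of the 8, IL1RN, IL37 and IL1RL1 among them, were under 1 TPM in MCF10AT1 and passed the filter through MCF10CA1a alone. Of 7 measured chemokines 6 were higher and 0 lower (median 1.97), or 6 higher and 1 lower with rescaled TPM. CXCL3, at 0.953 TPM in MCF10AT1, passed the filter through MCF10CA1a alone. IL1B, the secreted ligand interleukin 1 beta, stood at 0.382 TPM in MCF10A, 2.51 TPM in MCF10AT1, 9.44 TPM in MCF10DCIS and 135 TPM in MCF10CA1a. IL1A, its membrane-bound relative, stood at 0.813, 3.12, 14.6 and 75.4 TPM in the same order. Both were highest in MCF10CA1a by a wide margin over the other lines. CXCL8 (interleukin 8, the main human neutrophil attractant) stood at 1.31, 2.02, 25.5 and 188 TPM, a difference of 5.97 between MCF10CA1a and MCF10AT1. CXCL1, which acts on the same receptors, stood at 2.58 TPM in MCF10AT1 and 31.6 TPM in MCF10CA1a.

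The promoters of the 6 members of the cytokine, NF-kB and interferon lists with the largest differences are shown because they let the reader see which letters of known response elements lie before these genes. They were taken from RefSeq on GRCh38.p14 and cover 250 bases before the start listed there, 5′ to 3′ on the gene's strand. Capitals mark matches on either strand to TGANTCA (AP-1), GGANTTTCC (NF-kB), AAANNGAAA (interferon response element, ISRE) or TGANNNNGC (antioxidant response element, ARE). AP-1 and ARE matches can overlap. Of 35116 promoters of this length, 6.57% hold the AP-1 letters, 1.45% the NF-kB letters, 9.20% the ISRE letters and 35.2% the ARE letters. CXCL8 lies at chr4:73740319-73740568 (plus strand), CXCL1 at chr4:73869143-73869392 (plus), IL1B at chr2:112836780-112837029 (minus), IL1A at chr2:112784494-112784743 (minus; the first of 2 listed starts), BST2 at chr19:17405631-17405880 (minus) and IFITM1 at chr11:313790-314039 (plus).
CXCL8: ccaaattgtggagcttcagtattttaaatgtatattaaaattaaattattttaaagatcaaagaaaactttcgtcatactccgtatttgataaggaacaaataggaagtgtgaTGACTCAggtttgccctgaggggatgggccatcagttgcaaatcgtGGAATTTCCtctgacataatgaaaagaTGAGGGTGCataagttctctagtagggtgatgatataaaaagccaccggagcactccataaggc
CXCL1: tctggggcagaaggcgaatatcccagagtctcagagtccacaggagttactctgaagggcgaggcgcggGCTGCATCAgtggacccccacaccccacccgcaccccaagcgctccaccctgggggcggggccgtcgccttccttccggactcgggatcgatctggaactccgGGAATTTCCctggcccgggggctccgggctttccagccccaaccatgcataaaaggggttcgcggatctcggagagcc
IL1B: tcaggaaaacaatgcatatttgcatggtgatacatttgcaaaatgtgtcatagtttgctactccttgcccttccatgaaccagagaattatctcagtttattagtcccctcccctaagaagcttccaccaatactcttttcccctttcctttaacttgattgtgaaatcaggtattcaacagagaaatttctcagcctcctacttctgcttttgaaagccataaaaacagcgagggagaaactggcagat
IL1A: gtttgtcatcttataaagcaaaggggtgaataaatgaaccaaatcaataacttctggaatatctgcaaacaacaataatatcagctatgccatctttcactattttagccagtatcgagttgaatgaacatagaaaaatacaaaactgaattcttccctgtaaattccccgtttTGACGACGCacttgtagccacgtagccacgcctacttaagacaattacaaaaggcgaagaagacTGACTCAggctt
BST2: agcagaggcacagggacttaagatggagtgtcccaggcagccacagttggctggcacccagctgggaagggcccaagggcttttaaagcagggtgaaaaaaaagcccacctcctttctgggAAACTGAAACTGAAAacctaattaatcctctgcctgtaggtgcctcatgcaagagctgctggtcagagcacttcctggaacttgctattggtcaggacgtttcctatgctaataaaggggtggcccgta
IFITM1: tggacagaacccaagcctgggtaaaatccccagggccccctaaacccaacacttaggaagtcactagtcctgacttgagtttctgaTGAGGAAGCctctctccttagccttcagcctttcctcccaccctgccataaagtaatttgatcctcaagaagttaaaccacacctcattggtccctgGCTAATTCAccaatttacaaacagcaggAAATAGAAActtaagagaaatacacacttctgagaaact
In CXCL8 the AP-1 letters TGACTCA lie 137 to 131 bases before the start and the NF-kB letters GGAATTTCC 91 to 83 bases before it. CXCL1 holds the same NF-kB letters 78 to 70 bases before its start, and no AP-1 match. IL1A holds TGACTCA 12 to 6 bases before its start. In IL1B none of the 4 motifs was found in this window. BST2 holds 2 overlapping ISRE matches, AAACTGAAA, 129 to 121 and 123 to 115 bases before its start, and IFITM1 holds AAATAGAAA 39 to 31 bases before its own. A match of letters is a description of the sequence and was not tested for binding.

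Of the 3 measured receptor genes of the IL1 list 2 were higher and 1 lower. IL1R1, the signalling receptor, was the lower one, at 4.06 TPM in MCF10AT1 and 0.325 TPM in MCF10CA1a, a difference of -1.93. The accessory chain IL1RAP (5.37 and 16.3 TPM) and IL1RL1, the receptor of interleukin 33 (0.0442 and 2.29 TPM), were higher. The receptor antagonist IL1RN was at 6.33 TPM in MCF10A, 0.662 TPM in MCF10AT1 and 2.87 TPM in MCF10CA1a. CASP1, the protease that matures IL1B, differed by -0.64. Among the other chemokines, CXCL16 was at 11.9 TPM in MCF10A, 1.79 TPM in MCF10AT1 and 10.9 TPM in MCF10CA1a. CXCL3 and CXCL2 differed by 1.97 and 1.88, with sequences close enough to CXCL1 that reads may have been split.

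The NF-kB list was higher only in part. Of 18 measured subunits and feedback genes 7 were higher and 0 lower, with a median of 0.38. NFKBIZ, an inducible nuclear co-regulator, stood at 3.93 TPM in MCF10AT1 and 20.8 TPM in MCF10CA1a. NFKB2, the precursor subunit of the non-canonical branch, stood at 7.77 TPM and 30.7 TPM, and its partner RELB at 3.69 TPM and 10.2 TPM. TNFAIP3, the feedback inhibitor A20, stood at 1.63 TPM and 8.43 TPM. The canonical subunits RELA and NFKB1 differed by -0.05 and 0.14, and the inhibitor NFKBIA by -0.41.

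The list of IL6 family and STAT3 genes was mixed, with 3 of 15 measured higher and 2 lower and a median of -0.28. LIF, a ligand of the gp130 receptor, stood at 5.80 TPM in MCF10AT1 and 47.7 TPM in MCF10CA1a. IL6ST, which encodes gp130, stood at 23.7 TPM and 7.14 TPM, and IL6R at 3.04 TPM and 0.287 TPM. The other receptor genes OSMR, IL11RA and LIFR differed by -0.14, -0.63 and -0.93, and the ligand CLCF1 by -0.72, none of them past the rule of size. CSF2 and IL11 were low in both lines (differences 1.46 and 1.32).

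Interferon-stimulated genes leaned upwards, with 7 of 28 measured higher, 2 lower and 22 above 0, and a median of 0.60. BST2, the virus-tethering protein tetherin, stood at 0.831 TPM in MCF10A, 0.977 TPM in MCF10AT1, 67.0 TPM in MCF10DCIS and 83.2 TPM in MCF10CA1a. IFITM1, which restricts virus entry, stood at 1.97 TPM in MCF10AT1 and 22.9 TPM in MCF10CA1a. Its close relative IFITM2 stood the other way, at 91.4 TPM and 24.6 TPM, and reads of the IFITM genes may have been split. IFI35, ISG20 and OAS1 differed by 2.09, 1.56 and 1.53, and IFI44L by -1.48. The interferon signal transducer STAT2 differed by -0.35. Of 18 measured antigen presentation genes 2 were higher and 0 lower, HLA-B (20.1 and 51.8 TPM) and the immunoproteasome subunit PSMB9 (4.72 and 11.2 TPM), named after their values were seen. B2M differed by 0.03, and of 9 measured checkpoint ligand genes 0 passed the rule of size, CD274 among them at 0.50.

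**Figure D3:**
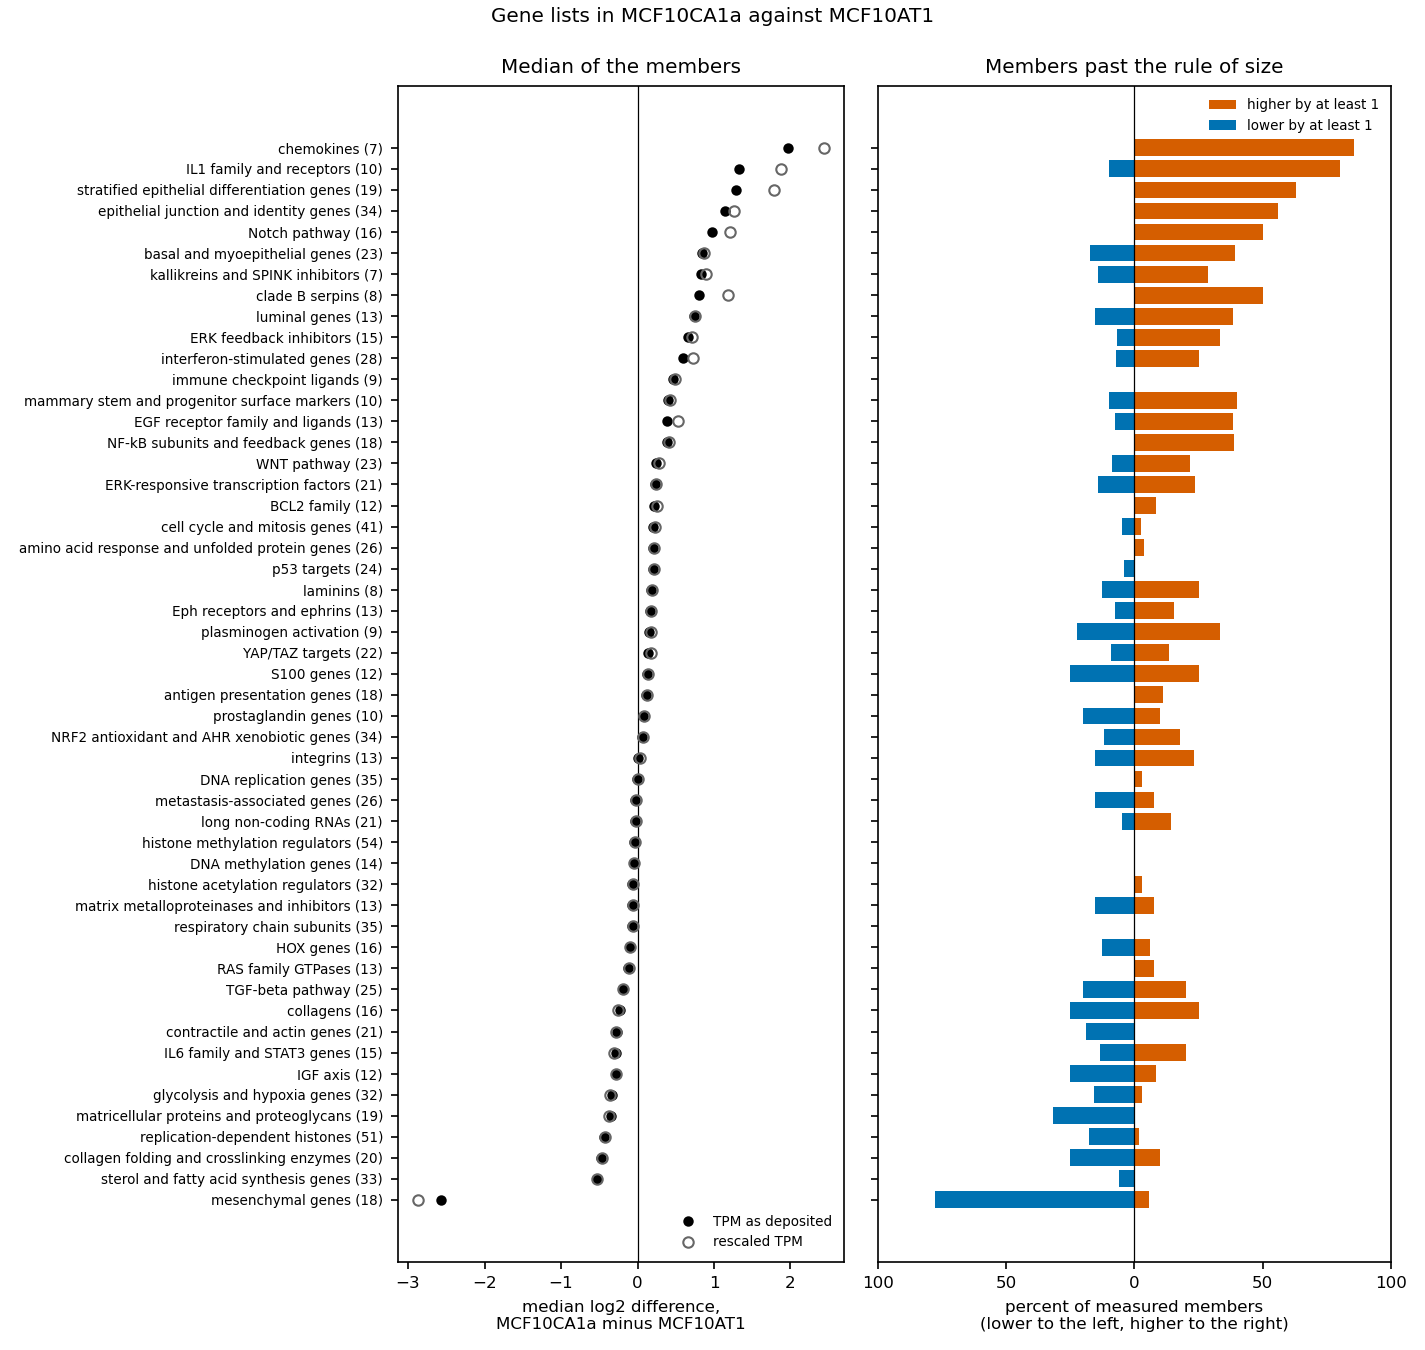
Gene lists with at least 7 measured members (number in brackets), ordered by their median log2 difference, MCF10CA1a minus MCF10AT1 (left, filled for deposited and open for rescaled TPM), with the percent of members higher (orange, to the right) or lower (blue, to the left) by at least 1 (right). Chemokines head the order with a median of 1.97 and mesenchymal genes close it with -2.58.

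Downstream of RAS, feedback inhibitors of the ERK pathway were higher in part. Of 15 measured, 5 were higher and 1 lower, with a median of 0.67. DUSP6, the cytoplasmic ERK phosphatase, stood at 13.4 TPM in MCF10A, 42.4 TPM in MCF10AT1 and 93.4 TPM in MCF10CA1a. SPRY1, an inhibitor of receptor signalling to RAS, stood at 3.13 TPM in MCF10AT1 and 15.4 TPM in MCF10CA1a, and the nuclear phosphatase DUSP5 at 5.72 TPM and 26.1 TPM. RASA1, a RAS GTPase-activating protein, and DUSP4 differed by 1.65 and 1.29. DUSP1, a stress-induced phosphatase, stood the other way, at 52.0 TPM and 4.68 TPM. None of the other 12 measured RAS family GTPases passed the rule of size, with NRAS at -0.11.

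ERK-responsive transcription factors were mixed, with 5 of 21 measured higher, 3 lower and a median of 0.23. IER3, an immediate early gene, stood at 60.0 TPM in MCF10AT1 and 202 TPM in MCF10CA1a. FOSL1, the AP-1 subunit most tied to ERK signalling, stood at 31.2 TPM and 63.9 TPM, a difference of 1.01. JUND, another AP-1 subunit, was at 29.2 TPM and 10.2 TPM. JUN, FOS, EGR1 and MYC did not pass the rule of size (-0.51, 0.93, 0.05 and 0.02).

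Ligands of the EGF receptor were among the genes with large differences. EREG, epiregulin, stood at 2.67 TPM in MCF10AT1 and 42.9 TPM in MCF10CA1a, a difference of 3.58. HBEGF stood at 5.16 TPM and 58.0 TPM and TGFA at 76.0 TPM in MCF10CA1a, a difference of 2.46. All 3 were also higher in MCF10CA1a than in MCF10A, which had 8.44, 4.20 and 19.9 TPM. AREG, amphiregulin, differed by -0.16. EPGN, epigen, was the lower member, at 45.7 TPM in MCF10A, 12.4 TPM in MCF10AT1 and 3.90 TPM in MCF10CA1a. The receptors EGFR and ERBB2 differed by 0.39 and 0.68. Over the list, 5 of 13 measured were higher and 1 lower, with a median of 0.39.

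Of 16 measured genes of the Notch pathway 8 were higher and 0 lower, with a median of 0.97. Some of the 8 were under 1 TPM in MCF10AT1 and passed the filter through MCF10CA1a alone. The ligand JAG1 stood at 16.4 TPM in MCF10AT1 and 86.7 TPM in MCF10CA1a. The receptors NOTCH1 and NOTCH3 differed by 1.04 and 1.36, and NOTCH2 by -0.66. Target genes of the HES family stood with the ligand: HES1 was at 8.54 TPM and 31.4 TPM, HES2 at 4.69 TPM and 21.1 TPM and HES4 at 8.94 TPM and 27.8 TPM. The target genes of the HEY family were under 1 TPM in both lines and so not measured. RBPJ, the DNA-binding factor of the pathway, differed by -0.38.

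In the WNT list 5 of 23 measured genes were higher and 2 lower, with a median of 0.24. The ligand WNT7B stood at 3.32 TPM in MCF10AT1 and 19.2 TPM in MCF10CA1a. WNT5A, a ligand of the non-canonical branch, was at 0.245 TPM in MCF10A, 6.11 TPM in MCF10AT1 and 0.0994 TPM in MCF10CA1a. In the TGF-beta list 5 of 25 were higher and 5 lower, the median was -0.19 and the mean 0.088. Members that bind or form activins were higher, FST at 4.09 TPM and 38.4 TPM and INHBA at 5.79 TPM and 45.2 TPM. Of the 3 measured receptor genes 2 were lower, TGFBR2 at 68.3 TPM and 23.6 TPM and TGFBR3 at 2.60 TPM and 0.180 TPM, while TGFBR1 differed by -0.19. TGFBI, a secreted target gene, stood at 536 TPM in MCF10AT1 and 78.2 TPM in MCF10CA1a. The transducers SMAD2, SMAD3 and SMAD4 differed by -0.05, 0.82 and -0.29.

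Plasminogen activators and 1 of their inhibitors were higher. PLAT, the tissue-type activator (chromosome 8, minus strand), stood at 0.619 TPM in MCF10A, 10.9 TPM in MCF10AT1, 113 TPM in MCF10DCIS and 294 TPM in MCF10CA1a. PLAU, the urokinase-type activator, stood at 13.6 TPM in MCF10AT1 and 117 TPM in MCF10CA1a, and its receptor PLAUR differed by 0.86. The inhibitor SERPINB2 stood at 2.86 TPM and 42.2 TPM. The inhibitor SERPINE2 (57.4 and 15.2 TPM) was lower. Over the list 3 of 9 measured were higher and 2 lower, with a median of 0.16. Among clade B serpins, 4 of 8 measured were higher and 0 lower, SERPINB3 at 0.360 TPM and 16.7 TPM and SERPINB1 at 43.4 TPM in MCF10CA1a, a difference of 1.89. SERPINB3 and SERPINB4 are near-identical copies. Both were under 1 TPM in MCF10AT1 and passed the filter through MCF10CA1a alone, so the filter bears on this count. Of 13 measured metalloproteinases and inhibitors 1 was higher and 2 lower: TIMP3 (16.9 and 50.4 TPM), MMP2 (17.6 and 0.875 TPM) and TIMP1 (504 and 176 TPM).

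The matrix lists differed in direction. Of 19 measured matricellular proteins and proteoglycans 0 were higher and 6 lower, with a median of -0.34. LTBP1, which stores latent TGF-beta in the matrix, stood at 1.32 TPM in MCF10A, 35.9 TPM in MCF10AT1 and 1.74 TPM in MCF10CA1a. FBN1, the microfibril protein fibrillin, stood at 10.8 TPM in MCF10AT1 and 0.217 TPM in MCF10CA1a, and the proteoglycan VCAN at 7.01 TPM and 0.541 TPM. Collagen chains were divided, with 4 of 16 measured higher and 4 lower. The median was -0.23 and the mean 0.00036. COL16A1 stood at 1.24 TPM in MCF10AT1 and 24.1 TPM in MCF10CA1a. COL7A1, the anchoring fibril collagen, stood at 15.8 TPM and 3.85 TPM. Of 8 measured laminin chains 2 were higher and 1 lower, with a median of 0.17: LAMA4 (12.7 and 53.4 TPM) and LAMB3 were higher and LAMB2 (45.6 and 17.8 TPM) was lower. Of 20 enzymes that fold and crosslink collagen 2 were higher, FKBP10 (8.37 and 67.7 TPM) and the transglutaminase TGM2 (5.67 and 46.7 TPM), and 5 were lower, among them the crosslinking enzymes LOXL1 (-1.96) and LOX (-1.27). Of integrins, the fibronectin receptor chain ITGA5 stood at 73.9 TPM in MCF10AT1 and 11.9 TPM in MCF10CA1a, and the collagen receptor chain ITGA2 at 10.9 TPM and 44.8 TPM. Over 13 integrins 3 were higher and 2 lower, with a median of 0.01. Among 21 contractile and actin genes 0 were higher and 4 lower. They were FLNA, TAGLN, MYH10 (-1.27) and TPM2 (193 and 82.0 TPM), while ACTB differed by -0.21.

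Genes of proliferation were close between the lines. Of 41 measured cell cycle and mitosis genes 1 was higher and 2 lower (median 0.20). Of 35 replication genes 1 was higher and 0 lower (median -0.01). The exceptions were CDK1, CCND3 and CDKN2C in the first list and RRM2 in the second. CDK1, the mitotic kinase, stood at 24.7 TPM in MCF10AT1 and 57.4 TPM in MCF10CA1a. CCND3, cyclin D3, was at 54.2 TPM and 13.8 TPM. MKI67, the proliferation marker Ki-67, differed by 0.56 and PCNA by 0.40. Of 24 measured p53 targets 0 were higher and 1 lower (TP53I3, -1.17), with the arrest gene CDKN1A at 0.45.

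Chromatin regulators showed few differences of size, set beside the background of 6.24% higher and 4.13% lower. Of 54 measured histone methylation regulators 0 passed the rule of size, and their median was -0.04. The methyltransferase gene EZH2 differed by -0.09 and the demethylase gene KDM6B by 0.64. Of 14 DNA methylation genes 0 passed it. Of 32 histone acetylation regulators 1 did, the deacetylase gene HDAC9, at 8.31 TPM in MCF10A, 0.833 TPM in MCF10AT1, 2.63 TPM in MCF10DCIS and 9.39 TPM in MCF10CA1a.

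The histone genes themselves leaned downwards. Of 51 measured replication-dependent histone genes 9 were lower and 1 higher. The median was -0.44, and 4 had a difference above 0. H1-5, a linker histone (chromosome 6, 27866849 to 27867529, minus strand), stood at 450 TPM in MCF10A, 241 TPM in MCF10AT1, 115 TPM in MCF10DCIS and 0.731 TPM in MCF10CA1a. H3C1 (26020490 to 26020900 on the same chromosome, plus strand) stood at 201 TPM in MCF10AT1 and 1.14 TPM in MCF10CA1a, and H2BC3 at 37.3 TPM and 0.0826 TPM. These 3 were far below the rest of the list, in which H4C1, H1-1 and H3C3 came next with -1.84, -1.79 and -1.74. The 13 measured neighbours within 100 kb of H1-5 differed by -1.69 to -0.15, with a median of -0.37. Around H3C1 the 10 measured neighbours, of which H2BC3 is 1, differed by -5.15 to 0.10, with a median of -0.54. H1-1 and H4C1, on either side of H3C1, were the lowest after H2BC3. Histone transcripts of this class carry no poly(A) tail, and the labels name total RNA. The deposited values do not show how reads shared by near-identical histone genes were assigned.

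**Figure D4:**
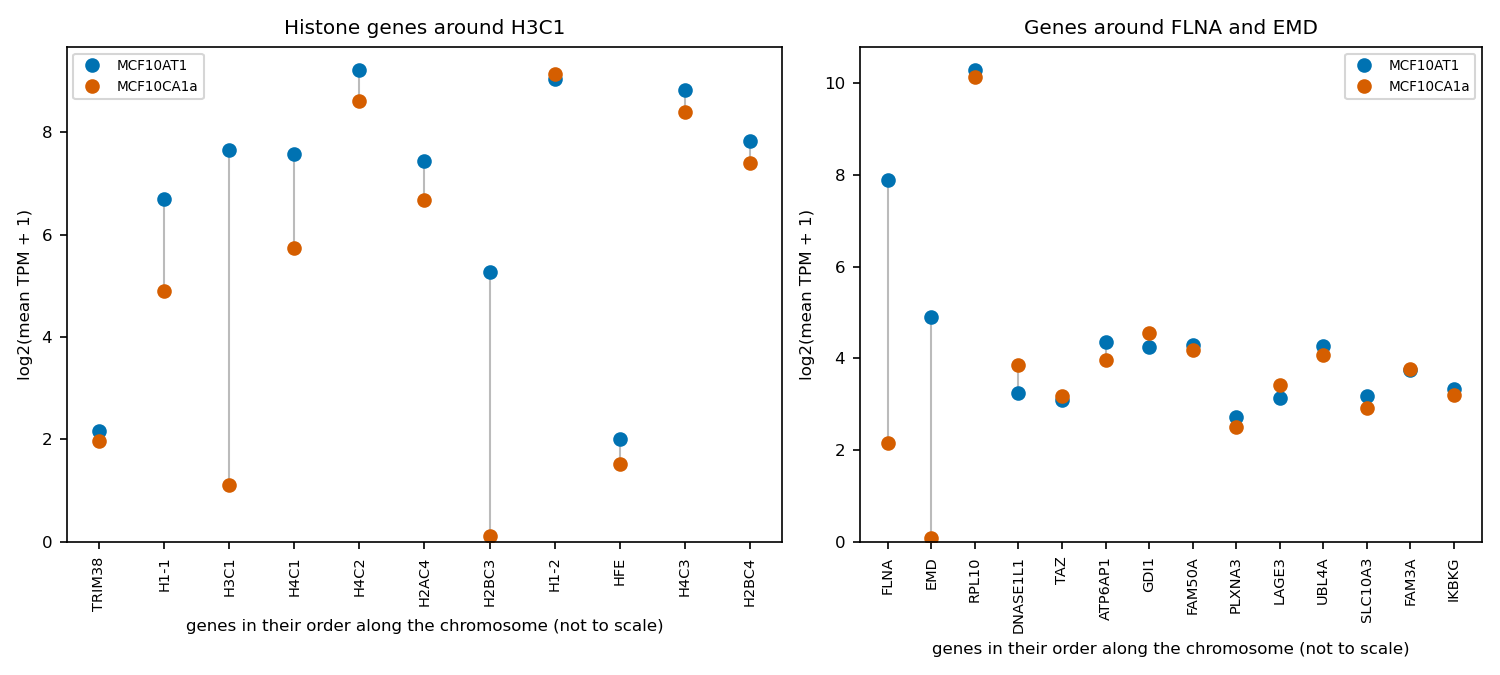
Levels in MCF10AT1 (blue) and MCF10CA1a (orange), as log2 of the authors' mean TPM plus 1 (y axes), of genes measured and reported around H3C1 (left, within 100 kb) and around FLNA and EMD (right, within 200 kb), in chromosome order and not to scale. H3C1 and H2BC3 on the left, and the adjacent FLNA and EMD on the right, lie far lower in MCF10CA1a, whereas RPL10 lies at nearly the same level in both lines.

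FLNA and EMD are adjacent on the X chromosome. FLNA lies at 154348524 to 154374638 on the minus strand, and EMD, which encodes the inner nuclear membrane protein emerin, at 154379197 to 154381523 on the plus strand. EMD stood at 24.5 TPM in MCF10A, 28.9 TPM in MCF10AT1, 0.0750 TPM in MCF10DCIS and 0.0538 TPM in MCF10CA1a. FLNA stood at 132, 236, 2.18 and 3.47 TPM in that order, so both genes were low in both carcinoma lines. The other 13 measured genes within 200 kb of FLNA differed by -0.39 to 0.61 between MCF10CA1a and MCF10AT1, RPL10 among them at -0.15. RN7SL471P, a copy of the signal recognition particle RNA (chromosome 6, 28977475 to 28977773), was at 1286.1, 1200.8, 1173.1 and 4.83 TPM in the 4 lines. TRIM27, the measured gene within 100 kb of it, differed by 0.05.

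Metal-binding and redox genes held some of the highest levels that differed. MT1E, a metallothionein (chromosome 16, 56625475 to 56627112), stood at 894 TPM in MCF10AT1 and 31.4 TPM in MCF10CA1a. Its neighbour MT2A stood at 7395.3 TPM and 973.2 TPM, MT1X at 184 TPM and 29.2 TPM, and MT1F differed by -1.68. The metallothioneins other than MT1E were chosen after their values were seen, and reads of near-identical MT1 genes may have been split. FTH1, the ferritin heavy chain, stood at 5236.0 TPM in MCF10A, 2746.3 TPM in MCF10AT1 and 647 TPM in MCF10CA1a.

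Over 34 measured NRF2 antioxidant and AHR xenobiotic genes 6 were higher and 4 lower, with a median of 0.05. Beside GPX2 and UGT1A6, the retinaldehyde dehydrogenase gene ALDH1A3 stood at 24.7 TPM in MCF10AT1 and 466 TPM in MCF10CA1a. The aldo-keto reductases AKR1B10 and AKR1C1 differed by 1.78 and 1.56, and AKR1C reads may have been split. The core NRF2 targets NQO1, GCLM and TXNRD1 differed by 0.38, 0.02 and -0.57. CYP1B1, an AHR target, stood the other way, at 23.4 TPM and 1.99 TPM, and the receptor gene AHR differed by 0.04.

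Central metabolism leaned downwards with few genes past the rule of size. Of 33 measured sterol and fatty acid synthesis genes 0 were higher and 2 lower, but only 3, ACACA and FASN among them, had a difference above 0, and the median was -0.53. The lower ones were ACAT2 (36.4 and 14.2 TPM) and LSS (43.6 and 19.2 TPM), named after their values were seen. Of 32 glycolysis and hypoxia genes 1 was higher and 5 lower, with a median of -0.34. HK2, a hexokinase, stood at 10.3 TPM and 37.5 TPM, and SLC2A3, a glucose transporter, at 3.87 TPM and 0.00929 TPM. Of 35 respiratory chain subunits 0 passed the rule of size, and their median was -0.08.

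Genes of 6 chromosome arms were higher in MCF10CA1a as a group, by medians of at least 0.2 with rescaled TPM. The medians were 0.51 on 3q (352 genes), 0.49 on 2p (336 genes), 0.41 on 20p (111 genes), 0.27 on 10q (370 genes), 0.24 on 20q (237 genes) and 0.21 on 17q (523 genes). As deposited, the median of 17q was 0.18 and the other 5 stayed above 0.2. On 2p 89.6% of the genes had a difference above 0 and on 3q 83.5%. The partner arms 2q and 3p had medians of -0.04 each. None of the other 35 arms or whole chromosomes was displaced by 0.2, the lowest being 11q at -0.11. A median over an arm does not show shifts within it. In bins of 10 Mb, named after their values were seen, 20q had 0.04 at 40 to 50 Mb and 0.59 at 50 to 60 Mb. The first 10 Mb of 9p had 0.53 (28 genes). On the 6 arms 178 of 1929 genes were higher (9.23%) and 50 lower (2.59%) as deposited. On the others 593 of 10400 were higher (5.70%) and 461 lower (4.43%). Because the 6 arms were picked by the medians of these same differences, this contrast follows from that choice and is not a separate result.

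**Figure D5:**
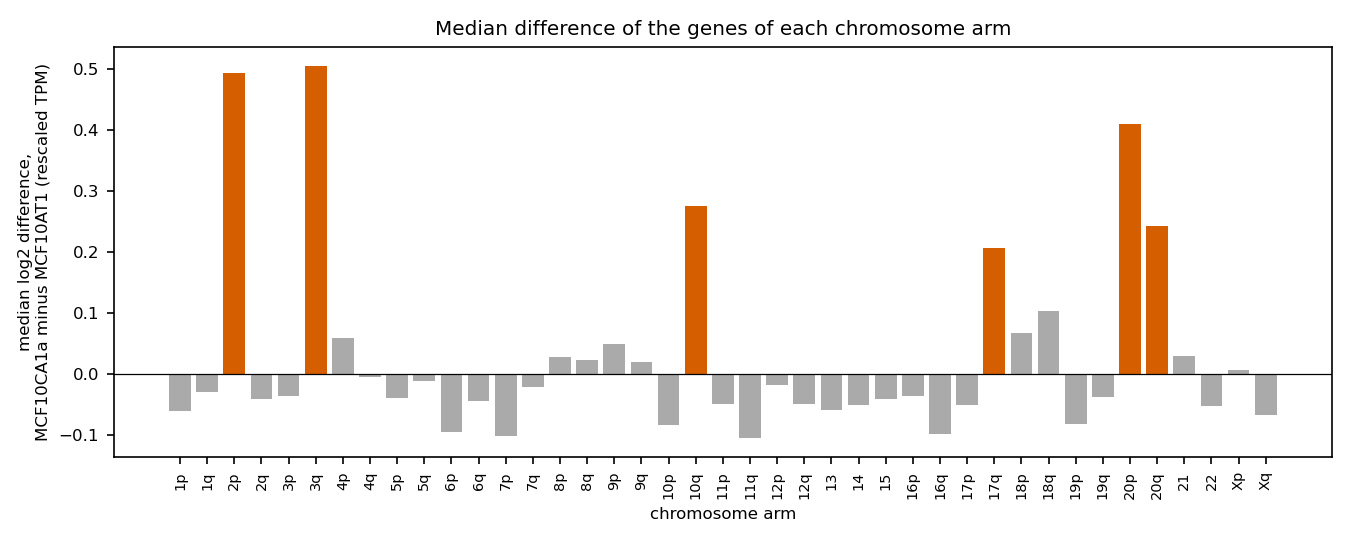
Median log2 difference (y axis, MCF10CA1a minus MCF10AT1, rescaled TPM) of the genes of each chromosome arm or whole chromosome (x axis), with arms displaced by at least 0.2 in orange. 3q, 2p, 20p, 10q, 20q and 17q lie between 0.21 and 0.51, and the other bars lie within about 0.1 of 0.

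Several list members lie on those arms, among them CLDN1, TP63 and HES1 on 3q and the keratins KRT13, KRT14 and KRT17 on 17q. Without the 6 arms the epithelial junction list kept 29 members with 15 higher, 0 lower and a median of 1.04, and the Notch list 13 with 6 higher, 0 lower and a median of 0.90. The mesenchymal list kept 16 with 14 lower and a median of -2.61. The basal list held 13 members, with a median of 0.49 in place of 0.85. For the NF-kB list the median became 0.05 in place of 0.38, with 5 of 15 higher. None of the 7 measured chemokines lies on these arms.

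Along the chromosomes, the run of 25 genes with the highest median (1.02, rescaled TPM) lay on 1q, from PSMB4 to S100A14 (151399534 to 153616986). It holds the SPRR, IVL and S100 genes of the epidermal differentiation region, and 19 of the 25 had a difference above 0. Some of the 19, IVL and SPRR2A among them, were under 1 TPM in MCF10AT1 and passed the filter through MCF10CA1a alone. The filter thus bears on this count and median, and the run itself was picked by its median. Within this run S100A9 and SPRR2A were higher while S100A4 stood at 37.9 TPM in MCF10AT1 and 5.24 TPM in MCF10CA1a. The lowest run, with a median of -0.63, lay on 16q (53035690 to 57148367), which includes the metallothionein genes.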

How the data were processed

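Per the labels, total RNA of each line was made into stranded libraries. The tools named in the submitters' processing notes include STAR and edgeR, with hg38 as the build. How TPM was quantified, on which annotation and with which strand setting is not given in the sources used here. What was deposited is a TPM table that gives the authors' mean over each line's libraries, so a limma fit, fixed for values per library, could not be run. All 4 columns belong to the study's lines (0 columns left unused).

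Differences of log2(TPM + 1) were computed in Python 3.11.15 with pandas 2.3.3 and numpy 2.4.6, with a pseudocount of 1, a filter of 1 TPM in either line and a limit of 1, and the calculation was tested on simulated data. Of 59427 symbols, 54469 matched GENCODE 29 (GRCh38, which hg38 denotes) by name and 2012 by identifier, and 12329 genes of the comparison were used by position. Arms were split at the largest gap between genes, and chromosomes 13, 14, 15, 21 and 22 were taken whole.

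The comparison and its 56 gene lists (1264 symbols, 1000 of them measured, some in several lists) were chosen with earlier results of these data known. Always named were HRAS, CDH1, VIM, FN1, KRT5, KRT14 and TP63. To these came the 15 largest differences each way with at least 10 TPM in the higher line, up to 5 members each way of a list with at least 3 past the limit, and members that complete a pair or pathway. Genes outside this rule were chosen after their values were seen. Some genes that the rule or a list holds are not reported here by name, but stay in the counts and medians. The alternatives were rescaled TPM, median-of-ratios scaling, quantile normalization, a pseudocount of 0.1, no filter and a filter of 5 TPM.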

Additional observations from a re-analysis of the deposited data

How the results depend on the processing

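The 786 higher and 520 lower genes became 1050 and 667 with rescaled TPM, 791 and 517 with median-of-ratios scaling, 724 and 545 with quantile normalization, and 1136 and 745 with a pseudocount of 0.1. With a filter of 5 TPM they were 556 and 316 of 8757 genes, since fewer genes were compared. Over the same settings the median of all genes lay between -0.037 and 0.013. Without genes on the 6 displaced arms, an alternative chosen after seeing the data, 608 genes were higher and 470 lower. With quantile normalization, 9 named genes came just under the limit of 1: COL12A1, FOSL1, IL37, LUCAT1, NFKBIE, NOTCH1, OVOL1, RRM2 and TP63, at 0.97 to 1.00. All other named genes past the limit stayed past it under the settings in which they could be computed. Among named genes under the limit, LIFR (-0.93) came past it with rescaled TPM, at -1.38. With no filter, which adds genes under 1 TPM, the median of the laminins was -0.00979 in place of 0.17 and that of the Eph receptors and ephrins -0.028 in place of 0.16. Of the other comparisons of a list's median, 263 moved by at most 0.1 and 59 by more. The medians of the integrins, DNA replication genes, HOX genes, long non-coding RNAs and metastasis-associated genes were within 0.1 of 0 and changed sign under some settings. No paired analysis was possible because the table holds 1 mean per line, and leaving out each library could not be run for the same reason. The number of reads behind a low value is unknown, so differences of genes near 1 TPM are the least certain.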

Other observations

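Some genes were at 10 TPM or more in 1 line and under 0.5 TPM in the other, 16 in MCF10CA1a and 23 in MCF10AT1. The genes named in this paragraph were chosen after their values were seen. Among the 16, ANXA10, an annexin of gastric epithelium, stood at 0.0560 TPM in MCF10AT1 and 16.2 TPM in MCF10CA1a. CALML3, a calmodulin-like protein of epithelial cells, stood at 0.00862 TPM and 13.5 TPM. Both were low in MCF10A and MCF10DCIS too (0.00855 and 0.0395 TPM for ANXA10, 0.0211 and 0.00317 TPM for CALML3). APOBEC3G, a cytidine deaminase that restricts retroviruses, was low in both precursor lines and present in both carcinoma lines, at 0.0352 TPM in MCF10A, 0.225 TPM in MCF10AT1, 10.5 TPM in MCF10DCIS and 13.4 TPM in MCF10CA1a. TMEM265 was listed at 0 in MCF10AT1 and stood at 9.80 TPM in MCF10A and 10.1 TPM in MCF10CA1a. Among the 23, MAOA, the monoamine oxidase A gene, was high in MCF10AT1 alone, at 0.161, 11.1, 0.0683 and 0.156 TPM in MCF10A, MCF10AT1, MCF10DCIS and MCF10CA1a. ZBTB16, a zinc finger repressor, stood at 13.2 TPM in MCF10AT1 and 0.0365 TPM in MCF10CA1a, and at 11.1 TPM in MCF10A. MSLN, the surface protein mesothelin, stood at 92.0 TPM in MCF10A, 12.3 TPM in MCF10AT1 and 0.133 TPM in MCF10CA1a.

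Surface receptors and non-coding RNAs held further differences. EPHA2, an ephrin receptor, stood at 41.3 TPM in MCF10AT1 and 181 TPM in MCF10CA1a, with 2 of 13 measured members of its list higher and 1 lower. Of 10 measured surface markers of mammary stem and progenitor cells 4 were higher and 1 lower, among them the complement regulator CD55 (14.6 and 48.2 TPM) and, as the lower one, MME (3.74 and 0.0415 TPM). F3, tissue factor, stood at 84.2 TPM in MCF10AT1 and 309 TPM in MCF10CA1a, and at 21.2 TPM in MCF10DCIS. Of 21 measured long non-coding RNAs 3 were higher and 1 lower. UCA1 stood at 15.3 TPM in MCF10A, 0.333 TPM in MCF10AT1 and 8.58 TPM in MCF10CA1a, and the imprinted H19 at 2.05, 32.7 and 0.147 TPM in the same lines. MALAT1 and NEAT1 differed by -0.04 and 0.07. The signal recognition particle RNA RN7SL3, one of the structural RNAs left out of rescaled TPM, stood at 4001.1 TPM in MCF10AT1 and 20087.3 TPM in MCF10CA1a. RN7SL1 and RN7SL2 differed by -0.11 and 0.06. These RNAs are near-identical, so reads may have been split among them. RN7SL1 alone took 33.3% of the TPM in MCF10AT1 and 30.8% in MCF10CA1a.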
